A study of Mus musculus with 4 samples.

Results

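The nuclear-encoded subunits of oxidative phosphorylation were followed in microglia, the resident macrophages of the brain, on 4 expression arrays. They were chosen by name alone: gene symbols beginning with Ndufa, Ndufb, Ndufc, Ndufs or Ndufv and a digit, the symbols Sdha to Sdhd, those beginning with Uqcr or Atp5, and the Cox symbols of subunits IV to VIII with a letter a, b or c, without pseudogene symbols. This gave 81 of the 17639 named genes on the array. By symbol, 35 were assigned to complex I, 4 to complex II, 8 to complex III, 16 to complex IV and 18 to complex V. All 81 are called subunit genes here, though Cox7a2l, Atp5l2 and Atp5sl encode no subunit, and Ndufa4 is counted with complex I. A gene was called expressed where its mean log2 intensity over the 4 arrays reached the median of such means, 7.18, which 8820 named genes did. Of the 81 subunit genes 76 were expressed.

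The groups were OVA (the allergy group) at P70, PBS (its control) at P70, OVA at P30 and PBS at P30, where P stands for postnatal day. All mice were male C57BL/6J, and microglia were isolated from whole brain 1 day after the mice were challenged intranasally. Each group was 1 array of material pooled from 4 samples. There was therefore no spread within a group, no test was made, and each difference given here is a log2 difference between 2 arrays and is only as precise as 1 array per group allows. Intensities of different probe sets do not rank genes by abundance, so levels are compared between arrays and not between genes.

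Oxidative phosphorylation is carried out by protein complexes of the inner mitochondrial membrane. Complexes I and II feed electrons from NADH and succinate to ubiquinone, complex III passes them to cytochrome c and complex IV to oxygen. Complexes I, III and IV pump protons as they do so, and complex V, the ATP synthase, uses the resulting gradient to make ATP. Most subunits are encoded in the nucleus and imported, and a few of the catalytic ones are encoded by mitochondrial DNA. Microglia are known to shift between respiration and glycolysis with their state of activation.

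The 4 arrays differed in the cell type markers that moved with age. The 5 microglia markers found, Tmem119, P2ry12, Cx3cr1, Sall1 and Csf1r, were expressed, with summed linear intensities of 442735 in OVA and 416930 in PBS at P70, against 350674 in OVA and 389531 in PBS at P30. These sums are mostly Cx3cr1, whose differences between arrays equalled those of the arrays' highest intensities, and which gave 77.4% of the sum in OVA and 82.2% in PBS at P70, against 85.3% in OVA and 84.8% in PBS at P30. The median of the 5 markers was a log2 intensity of 15.12 in OVA and 14.72 in PBS at P70, against 13.29 in OVA and 13.30 in PBS at P30. Among them, P2ry12 differed with age by 2.36 in OVA and 1.84 in PBS, and Csf1r by 0.02 in OVA and -0.65 in PBS. The 8 neutrophil markers, all expressed, summed to 751839 in OVA and 884455 in PBS at P70, against 22247 in OVA and 69833 in PBS at P30. Monocyte markers, 4 of 4 expressed, summed to 22418 in OVA and 20381 in PBS at P70, against 1647 in OVA and 1487 in PBS at P30. Border-associated macrophage markers, 5 of 6 expressed, summed to 5992 in OVA and 2027 in PBS at P70, and to 1338 in OVA and 1630 in PBS at P30. Of the choroid plexus markers only Ttr was expressed, at 12.02 in OVA and 7.90 in PBS at P70, against 9.32 in OVA and 7.45 in PBS at P30. None of the 4 neuron markers and neither of the 2 erythroid markers found reached the floor, and 1 marker each of astrocytes (Slc1a3), oligodendrocytes (Mag) and endothelial cells (Pecam1) did. The array medians, over all probe sets, were intensities of 104.6 in OVA and 111 in PBS at P70, and 132.4 in OVA and 131 in PBS at P30. Neutrophil and monocyte markers and the array medians thus moved with age. Ttr was higher in OVA at both ages, and the border-associated macrophage sum was higher in OVA at P70. The neutrophil sum was lower in OVA at both ages. At P70 the neutrophil markers S100a8, S100a9, Ngp, Retnlg and Mmp8 were lower in OVA, while Camp, Ltf and Mmp9 were higher. The part of any of these in the differences below was not tested. In pooled cells a changed share of a cell type and a changed RNA level per cell cannot be told apart.

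Respiratory subunit genes stood higher at P70 than at P30 in both treatments. In OVA, 66 of the 76 expressed subunit genes were at least 1.5-fold higher at P70 (86.8%), where 38.6% of all expressed genes were, and none was at least 1.5-fold lower, where 4.37% of all expressed genes were. In PBS, 63 of 76 were at least 1.5-fold higher (82.9%), against 29.1% of all expressed genes, and again none was lower, against 2.91%. The median difference of the subunit genes was 1.34 in OVA (range -0.46 to 3.28), where that of all expressed genes was 0.39, and 1.17 in PBS (range -0.58 to 3.19), where that of all expressed genes was 0.26. Both treatments had 59 of the 76 genes in common at that threshold, 77.6% of them, while 2306 of the 8820 expressed genes (26.1%) met it in both. Ranked by the mean of the 2 age differences, 39 of the 76 lay in the top 10% of expressed genes, at 1.24 or more.

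**Figure D1:**
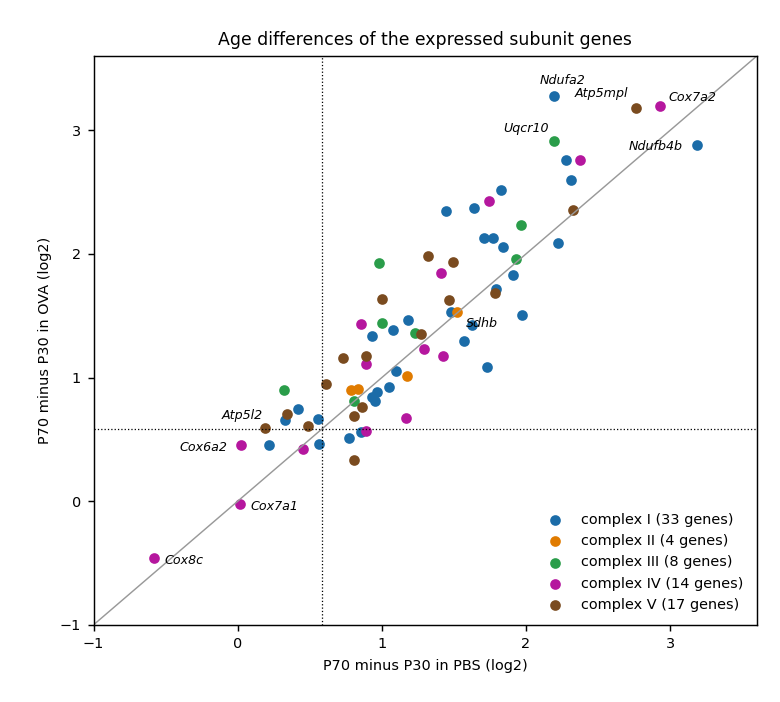
P70 minus P30 difference (log2) of the 76 expressed subunit genes in OVA (vertical axis) and in PBS (horizontal axis), coloured by complex, with dotted lines at 1.5-fold and the diagonal. Most points lie above and to the right of the dotted lines, while Cox8c lies below 0 on both axes.

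The size of this difference depended on the scaling between arrays, which the sources used here do not give. Brighter genes differed more with age: among the 4410 brightest genes the median difference of all genes was 0.75 in OVA and 0.55 in PBS. The subunit probe sets were bright, with a median level at P70 of 10.48 in OVA and 10.45 in PBS, where that of all expressed genes was 8.67 in OVA and 8.57 in PBS. When each difference was taken relative to genes of similar level (lowess centring), the subunit median was 0.56 in OVA and 0.61 in PBS. At that setting 38 of 76 genes in OVA and 39 in PBS were at least 1.5-fold higher, where 13.5% and 12.03% of all expressed genes were. It put Atp5a1, Atp5b, Atp5l, Atp5l2, Cox7b and Ndufs3 in OVA, and Atp5b in PBS, at or below 0, though they were at least 1.5-fold higher as deposited. Median centring kept 48 of the 66 genes in OVA and 52 of the 63 in PBS at or above 1.5-fold, where 19.8% of all expressed genes in OVA and 17.4% in PBS were, and none of the subunit genes called as deposited turned below 0 there. Of all calls over expressed genes, 89.8% in OVA and 90.9% in PBS were upward as deposited, against 58.4% in OVA and 67.6% in PBS after median centring and 56.0% in OVA and 58.8% in PBS after lowess centring.

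The age differences in OVA and in PBS, which share no array, followed each other gene by gene. Pearson's r was 0.90 over the 76 genes and 0.88 over all expressed genes; it is a description across genes, which are not independent replicates. The difference was larger in OVA for 49 of the 76 genes (64.5%), about the share of all expressed genes (63.8%).

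Promoters of 1 subunit gene per complex are shown. For each complex this was the expressed gene with the largest mean age difference over OVA and PBS. Only genes with a GABPA, NRF1 or YY1 motif, each given below, in the stretch shown were considered. The examples were thus picked by motif and by age difference. Each of them carries CCGGAAG, which 16 of the 67 matched subunit promoters hold. RefSeq promoter sequences (GRCm38.p6) were matched for 67 of the 81 genes. Each sequence below is the strand of the gene, 5′ to 3′, up to 250 bases before the annotated start, and shortened where a neighbouring gene begins. Capitals mark CCGGAAG or its reverse complement CTTCCGG, the core bound by the ETS factor GABPA (also called nuclear respiratory factor 2), which is known to act on many respiratory promoters. Ndufb7 lies at chr8:83566508-83566757 (plus strand), Sdhd at chr9:50603850-50603900 (minus strand, shortened at Timm8b), Uqcrh at chr4:116075071-116075268 (minus strand, shortened at Lrrc41), Cox6b1 at chr7:30626115-30626364 (minus strand) and Atp5e at chr2:174464102-174464351 (minus strand).
Ndufb7: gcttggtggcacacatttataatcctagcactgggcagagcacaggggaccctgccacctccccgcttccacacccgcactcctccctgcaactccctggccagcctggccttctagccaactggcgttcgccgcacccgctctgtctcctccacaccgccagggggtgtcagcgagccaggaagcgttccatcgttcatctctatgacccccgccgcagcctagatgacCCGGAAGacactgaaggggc
Sdhd: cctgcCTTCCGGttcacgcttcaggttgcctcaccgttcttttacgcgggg
Uqcrh: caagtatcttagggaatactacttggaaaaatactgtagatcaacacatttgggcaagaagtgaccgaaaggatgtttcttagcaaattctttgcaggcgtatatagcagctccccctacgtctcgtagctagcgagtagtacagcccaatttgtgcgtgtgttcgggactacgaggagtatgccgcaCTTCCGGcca
Cox6b1: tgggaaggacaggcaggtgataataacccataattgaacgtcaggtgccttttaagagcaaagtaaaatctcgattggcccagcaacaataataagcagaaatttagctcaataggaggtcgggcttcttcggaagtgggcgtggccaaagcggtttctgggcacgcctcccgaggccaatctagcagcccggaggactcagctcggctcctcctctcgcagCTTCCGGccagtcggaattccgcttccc
Atp5e: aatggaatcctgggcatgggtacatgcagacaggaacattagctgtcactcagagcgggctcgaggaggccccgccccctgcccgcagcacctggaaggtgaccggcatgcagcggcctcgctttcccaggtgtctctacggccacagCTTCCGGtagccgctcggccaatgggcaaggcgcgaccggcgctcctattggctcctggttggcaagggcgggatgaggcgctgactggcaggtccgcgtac
The motif ran in the forward sense in Ndufb7 and in the reverse sense in the other four, and began 20 bases before the start in Ndufb7, 46 in Sdhd, 10 in Uqcrh, 28 in Cox6b1 and 102 in Atp5e.

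The c-ring gene Atp5g2 shows the motif of the other nuclear respiratory factor, NRF1, whose palindromic site was searched as GCGC, 1 base of any kind and TGCGC. Among the expressed subunit genes with this motif in such a stretch, Atp5g2 had the largest mean age difference and was chosen for that. Its promoter window is chr15:102671048-102671297 on the minus strand, with the motif in capitals from 42 to 33 bases before the start.
Atp5g2: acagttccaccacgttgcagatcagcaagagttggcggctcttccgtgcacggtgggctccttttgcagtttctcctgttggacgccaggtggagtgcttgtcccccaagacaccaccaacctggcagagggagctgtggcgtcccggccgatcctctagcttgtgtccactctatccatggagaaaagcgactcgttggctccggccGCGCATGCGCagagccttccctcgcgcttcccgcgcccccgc
All motifs were searched on both strands of the whole RefSeq windows. The NRF1 motif was present in 20.9% of the 67 matched subunit promoters, against 11.3% of 6926 promoters of expressed genes and 4.78% of 27025 promoters in all. CCGGAAG was present in 23.9%, against 20.1% and 9.12%. AANATGGCG, a YY1 core, was present in 13.4%, against 6.21% and 2.51%, and AAGGTCA, the core site of the oestrogen-related receptor ESRRA, in 10.4%, against 3.28% and 4.66%. GGGCGG, the SP1 box, was present in 40.3% of subunit promoters, against 62.3% and 35.9%. CCAAT was found in 43.3%, against 38.9% and 37.9%, the E-box CACGTG in 10.4%, against 10.5% and 7.24%, and TATAAA in 11.9%, against 7.64% and 14.2%. These windows had a median GC content of 57.0% in subunit genes, against 60.3% in expressed genes and 52.7% in all. A match says that the letters are present, and these shares were not tested.

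Complex I is the largest of the complexes, and its core subunits carry the flavin and iron-sulfur clusters that take electrons from NADH. Of its 35 genes 33 were expressed; 29 of them were at least 1.5-fold higher at P70 in OVA and 28 in PBS, with median differences of 1.43 in OVA and 1.48 in PBS. The 6 core genes found differed by a median of 0.83 in OVA and 0.89 in PBS, and the 27 expressed accessory genes by 1.51 in OVA and 1.63 in PBS.

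Among the core subunits, Ndufv1, which binds the flavin and oxidises NADH, was at 8.94 in OVA P70 and 8.81 in PBS P70, and 8.28 in OVA P30 and 8.49 in PBS P30. Ndufv2, an iron-sulfur protein beside it, was at 10.70 (OVA) and 10.56 (PBS) at P70 and 9.36 (OVA) and 9.63 (PBS) at P30. Ndufs1, the large iron-sulfur subunit of the NADH-oxidising module, was at 8.85 in OVA and 8.99 in PBS at P70, against 8.29 in OVA and 8.13 in PBS at P30. In these 3 genes both P70 arrays exceeded both P30 arrays, and Ndufv1 differed by 0.65 in OVA and 0.32 in PBS. Ndufs3, of the module that reduces ubiquinone, was at 11.11 in OVA P70 and 11.26 in PBS P70, and 10.19 in OVA P30 and 10.21 in PBS P30. Ndufs7, which carries the last iron-sulfur cluster before ubiquinone, was at 9.16 (OVA) and 8.97 (PBS) at P70 and 8.41 (OVA) and 8.55 (PBS) at P30. Ndufs8, another iron-sulfur subunit, was at 10.56 in OVA and 10.46 in PBS at P70, against 8.85 in OVA and 8.67 in PBS at P30. Ndufs8 had the largest age difference of the core genes, 3.28-fold in OVA and 3.46-fold in PBS, and Ndufs7 passed 1.5-fold only in OVA (1.67-fold, against 1.34-fold in PBS).

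The accessory subunits of the peripheral arm surround the core that reaches into the matrix. Ndufa2, of the NADH-oxidising module, was at 14.26 in OVA P70 and 13.44 in PBS P70, and 10.99 in OVA P30 and 11.24 in PBS P30. It had the largest age difference of all subunit genes in OVA, 9.69-fold, and 4.58-fold in PBS. Ndufs4, whose loss in mice gives a Leigh-like encephalopathy, was at 11.72 (OVA) and 11.73 (PBS) at P70 and 9.66 (OVA) and 9.88 (PBS) at P30. Ndufs6, a zinc-binding subunit, was at 9.59 in OVA and 9.49 in PBS at P70, against 8.17 in OVA and 7.86 in PBS at P30, and has a near copy, Ndufs6b, that could share its signal. Ndufv3 was at 10.38 in OVA P70 and 10.17 in PBS P70, and 9.002 in OVA P30 and 9.10 in PBS P30. These 3 stood between 2.60-fold and 4.16-fold higher at P70 in OVA and between 2.11-fold and 3.59-fold higher in PBS. Ndufa12, of the same arm and with a named pseudogene, was at 9.92 (OVA) and 10.36 (PBS) at P70 and 9.08 (OVA) and 9.43 (PBS) at P30. Ndufa9, of the ubiquinone-reducing module, was at 12.56 in OVA and 12.74 in PBS at P70, against 10.73 in OVA and 10.83 in PBS at P30. Ndufa5, of that module too, was at 10.40 in OVA P70 and 10.11 in PBS P70, and 9.95 in OVA P30 and 9.90 in PBS P30. Ndufa5 was one of the few accessory genes below 1.5-fold in both treatments, at 1.37-fold in OVA and 1.16-fold in PBS. Ndufa6, a protein of the LYR family, was at 9.27 (OVA) and 9.06 (PBS) at P70 and 8.39 (OVA) and 8.09 (PBS) at P30. Ndufa7 was at 9.25 in OVA and 9.23 in PBS at P70, against 8.58 in OVA and 8.67 in PBS at P30. Ndufa7 passed 1.5-fold in OVA (1.59-fold) and missed it in PBS (1.47-fold).

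The membrane arm pumps the protons, and its accessory subunits lie along and around it. Ndufa1, an X-linked gene, was at 13.40 in OVA P70 and 13.30 in PBS P70, and 11.31 in OVA P30 and 11.08 in PBS P30. Ndufa3 was at 10.06 (OVA) and 9.73 (PBS) at P70 and 8.53 (OVA) and 8.25 (PBS) at P30. Ndufa8, on the side of the intermembrane space, was at 10.62 in OVA and 10.88 in PBS at P70, against 9.53 in OVA and 9.15 in PBS at P30. Ndufa8 was the subunit gene whose OVA minus PBS difference was -0.26 at P70 and, at 0.38, the highest of all at P30. Ndufa10 was at 10.73 in OVA P70 and 10.44 in PBS P70, and 9.27 in OVA P30 and 9.25 in PBS P30. Ndufa13, also known as GRIM-19, was at 12.07 (OVA) and 11.50 (PBS) at P70 and 9.73 (OVA) and 10.05 (PBS) at P30. Ndufc2 was at 12.78 in OVA and 12.93 in PBS at P70, against 11.27 in OVA and 10.95 in PBS at P30. The P70 arrays lay above the P30 arrays in each of these genes, and Ndufa13 differed by 5.08-fold in OVA against 2.72-fold in PBS. Ndufs5, which has a named pseudogene, was at 9.70 in OVA P70 and 10.05 in PBS P70, and 9.19 in OVA P30 and 9.28 in PBS P30. Ndufb11, X-linked as well, was at 11.96 (OVA) and 11.84 (PBS) at P70 and 9.83 (OVA) and 10.06 (PBS) at P30. Ndufb5 was at 10.003 in OVA and 10.04 in PBS at P70, against 8.71 in OVA and 8.47 in PBS at P30. Ndufs5 differed less with age than the other genes of the arm named so far, by 1.43-fold in OVA and 1.71-fold in PBS.

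The Ndufb subunits belong to the proton-pumping arm, and 9 of the 10 found were at least 1.5-fold higher at P70 in each treatment. Ndufb4b was at 14.08 in OVA P70 and 14.63 in PBS P70, and 11.19 in OVA P30 and 11.44 in PBS P30. It differed by 7.38-fold in OVA and by 9.10-fold in PBS, the largest age difference of all subunit genes in PBS. It is a near copy of Ndufb4, whose probe set is shared among several genes and was not used, so the signal of Ndufb4b is uncertain. Ndufb3 was at 11.94 (OVA) and 11.44 (PBS) at P70 and 9.35 (OVA) and 9.13 (PBS) at P30. Ndufb6 was at 11.54 in OVA and 11.18 in PBS at P70, against 9.16 in OVA and 9.54 in PBS at P30. Both genes stood higher in each P70 array than in either P30 array. Ndufb7, whose promoter is shown above, was at 10.38 in OVA P70 and 10.16 in PBS P70, and 7.86 in OVA P30 and 8.33 in PBS P30. Ndufb9, another LYR protein, was about as high in both P30 arrays, at 11.80 (OVA) and 11.37 (PBS) at P70 and 9.67 (OVA) and 9.66 (PBS) at P30. These 4 genes were between 4.37-fold and 6.05-fold higher at P70 in OVA and between 3.12-fold and 4.98-fold higher in PBS. Ndufb8 was at 9.10 in OVA and 9.36 in PBS at P70, against 8.05 in OVA and 8.26 in PBS at P30. Ndufb10 was at 9.14 in OVA P70 and 9.47 in PBS P70, and 8.33 in OVA P30 and 8.52 in PBS P30. Ndufb2 was at 8.998 (OVA) and 9.12 (PBS) at P70 and 8.54 (OVA) and 8.55 (PBS) at P30, and was the gene of the 10 below 1.5-fold in both treatments.

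Complex II, succinate dehydrogenase, is also an enzyme of the tricarboxylic acid cycle and is wholly encoded in the nucleus. All 4 genes were at least 1.5-fold higher at P70 in both treatments, with medians of 0.96 in OVA and 1.00 in PBS. Sdha, the flavoprotein that oxidises succinate, was at 10.04 in OVA and 9.88 in PBS at P70, against 9.14 in OVA and 9.05 in PBS at P30. Sdhb, the iron-sulfur subunit, was at 11.34 in OVA P70 and 11.40 in PBS P70, and 9.81 in OVA P30 and 9.88 in PBS P30. Its age difference was the largest of the complex, 2.89-fold in OVA and 2.87-fold in PBS. The membrane anchor Sdhc was at 8.84 (OVA) and 8.76 (PBS) at P70 and 7.95 (OVA) and 7.97 (PBS) at P30. The other anchor, Sdhd, whose short promoter is shown above, was at 8.67 in OVA and 8.63 in PBS at P70, against 7.65 in OVA and 7.46 in PBS at P30. In each of the 4 genes the OVA and PBS arrays of an age differed by at most 0.19.

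Complex III passes electrons from ubiquinol to cytochrome c. Its 8 genes were expressed; 8 were at least 1.5-fold higher at P70 in OVA and 7 in PBS, with medians of 1.69 in OVA and 1.11 in PBS. Uqcrfs1, the Rieske iron-sulfur protein and the catalytic subunit of the complex in this set, was at 7.58 in OVA P70 and 7.40 in PBS P70, and 6.68 in OVA P30 and 7.08 in PBS P30. It lay at the floor (mean 7.18) and differed by 0.90 in OVA, and in PBS was the gene below 1.5-fold, at 0.32. The large core proteins face the matrix. Uqcrc1 was at 9.71 (OVA) and 9.75 (PBS) at P70 and 8.89 (OVA) and 8.94 (PBS) at P30. Uqcrc2 was at 11.72 in OVA and 11.62 in PBS at P70, against 10.28 in OVA and 10.62 in PBS at P30. The small subunits differed more with age than Uqcrc1, which differed by 1.76-fold in OVA and 1.75-fold in PBS. Uqcr10 was at 10.36 in OVA P70 and 9.98 in PBS P70, and 7.44 in OVA P30 and 7.79 in PBS P30. Uqcr11 was at 9.85 (OVA) and 9.29 (PBS) at P70 and 7.93 (OVA) and 8.31 (PBS) at P30. Uqcr10 had the largest age difference of the complex in both treatments, 7.54-fold in OVA and 4.57-fold in PBS. Uqcrq was at 11.28 in OVA and 10.86 in PBS at P70, against 9.04 in OVA and 8.90 in PBS at P30. Uqcrb was at 13.88 in OVA P70 and 13.72 in PBS P70, and 12.52 in OVA P30 and 12.49 in PBS P30. Uqcrh, the hinge protein that helps dock cytochrome c, was at 11.77 (OVA) and 11.80 (PBS) at P70 and 9.81 (OVA) and 9.87 (PBS) at P30, and has 2 named pseudogenes that could share its signal. In all 8 genes the age difference was larger in OVA than in PBS, though by only 0.003 in Uqcrc1 and 0.03 in Uqcrh, where 63.8% of all expressed genes had this order. After median centring Uqcrc1 and Uqcrh lost it, which left 6 of the 8 against 47.2% of all expressed genes, after lowess centring it held for 5 of the 8 against 48.2%, and after quantile normalization for 7 of the 8 against 67.7%.

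**Figure D2:**
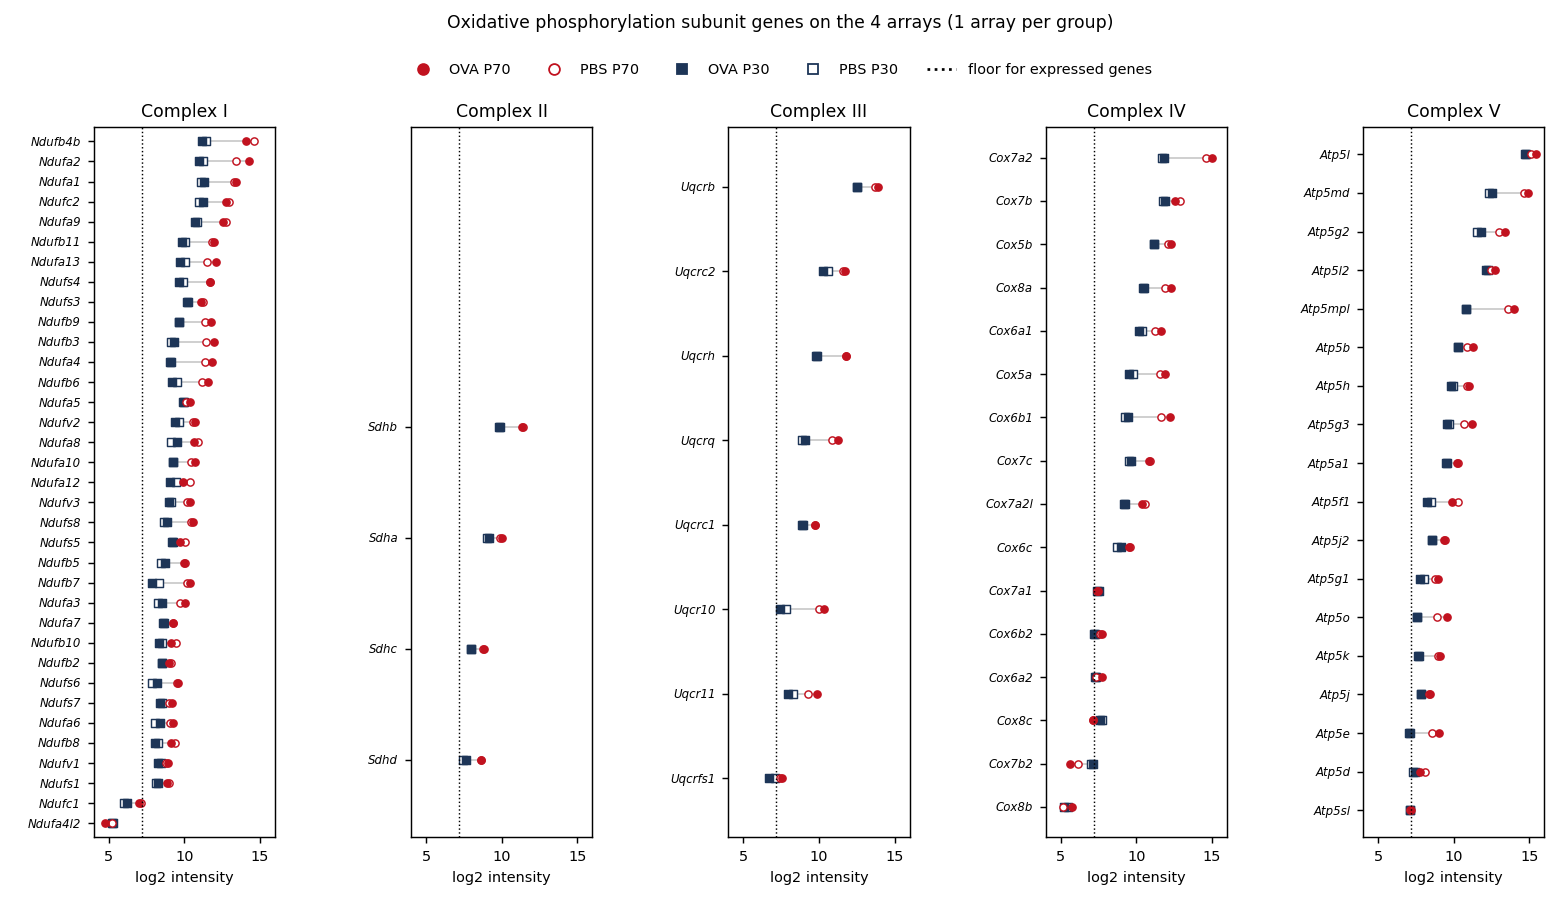
Log2 intensity of every subunit gene in 5 panels, 1 per complex, with 1 point per array: filled red circles for OVA P70, open red circles for PBS P70, filled blue squares for OVA P30 and open blue squares for PBS P30. The dotted line marks the floor of 7.18, and the red points of most genes lie to the high side of the blue ones, except in the tissue isoforms near the floor.

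Complex IV, cytochrome c oxidase, transfers electrons to oxygen, and several of its nuclear subunits exist as a widespread form and a form restricted to muscle or testis. Of its 16 genes 14 were expressed, 9 of them at least 1.5-fold higher at P70 in OVA and 10 in PBS, with medians of 1.15 in OVA and 1.03 in PBS. The 4 expressed genes restricted to other tissues did not reach 1.5-fold in either treatment. Cox5a was at 11.92 in OVA and 11.55 in PBS at P70, against 9.49 in OVA and 9.81 in PBS at P30. Cox5b, which binds zinc and has a named pseudogene, was at 12.27 in OVA P70 and 12.08 in PBS P70, and 11.15 in OVA P30 and 11.19 in PBS P30. Cox6c, with the near copy Cox6c2, was at 9.53 (OVA) and 9.59 (PBS) at P70 and 8.96 (OVA) and 8.70 (PBS) at P30. Of these Cox5a differed most, by 5.38-fold in OVA and 3.35-fold in PBS, and Cox6c was just below 1.5-fold in OVA (1.48-fold).

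As deposited, in each set of isoforms the widespread form was at least 1.5-fold higher at P70 and the tissue form was not. After median centring Cox6a1 fell short in PBS (0.56) and Cox7b in OVA (0.26). After lowess centring Cox6a1 was at 0.45 in OVA and 0.08 in PBS, and Cox7b at -0.45 in OVA and 0.23 in PBS. The tissue form Cox6a2 was then at 0.42 in OVA and 0.05 in PBS. Cox6b1, Cox7a2 and Cox8a stayed at least 1.5-fold higher in both treatments under either centring. Cox6a1, the widespread form, was at 11.61 in OVA and 11.25 in PBS at P70, against 10.18 in OVA and 10.39 in PBS at P30. Cox6a2, the form of heart and skeletal muscle, was at 7.76 in OVA P70 and 7.30 in PBS P70, and 7.30 in OVA P30 and 7.28 in PBS P30. Cox6a1 was 2.71-fold higher at P70 in OVA and 1.81-fold in PBS, while Cox6a2 was near the floor and differed by 1.37-fold in OVA and 1.02-fold in PBS. Cox6b1, which sits on the intermembrane side, was at 12.23 (OVA) and 11.60 (PBS) at P70 and 9.47 (OVA) and 9.23 (PBS) at P30. Cox6b2, a testis form, was at 7.69 in OVA and 7.62 in PBS at P70, against 7.27 in OVA and 7.16 in PBS at P30. The age difference was 6.79-fold in OVA and 5.18-fold in PBS for Cox6b1, and 1.34-fold in OVA and 1.37-fold in PBS for Cox6b2. Cox7a2 was at 15.01 in OVA P70 and 14.64 in PBS P70, and 11.82 in OVA P30 and 11.71 in PBS P30. Cox7a1, the muscle form, was at 7.48 (OVA) and 7.41 (PBS) at P70 and 7.51 (OVA) and 7.40 (PBS) at P30. Cox7a2l, which is a supercomplex factor and no subunit of the enzyme, was at 10.39 in OVA and 10.55 in PBS at P70, against 9.16 in OVA and 9.26 in PBS at P30. Cox7a2 was 9.16-fold higher at P70 in OVA and 7.61-fold in PBS, while no pair of arrays of Cox7a1 differed by more than 0.11. Cox7b, X-linked, was at 12.56 in OVA P70 and 12.92 in PBS P70, and 11.89 in OVA P30 and 11.75 in PBS P30. Cox7b2, a testis form, was below the floor at 5.62 (OVA) and 6.11 (PBS) at P70 and 7.16 (OVA) and 7.03 (PBS) at P30. Cox7b was higher in both P70 arrays, while Cox7b2 was lower there but too dim to count. Cox8a was at 12.28 in OVA and 11.90 in PBS at P70, against 10.43 in OVA and 10.49 in PBS at P30. Cox8c, a testis form, was at 7.12 in OVA P70 and 7.15 in PBS P70, and 7.59 in OVA P30 and 7.74 in PBS P30. Cox8c was the gene with the lowest age difference in both treatments, -0.46 in OVA and -0.58 in PBS, just short of the threshold. Cox8b, the muscle form of rodents, was below the floor at 5.71 (OVA) and 5.17 (PBS) at P70 and 5.18 (OVA) and 5.49 (PBS) at P30. Cox7c, which has no second form in this set but has a named pseudogene, was at 10.81 in OVA and 10.93 in PBS at P70, against 9.64 in OVA and 9.50 in PBS at P30. Its arrays at P70 stood 2.26-fold above P30 in OVA and 2.68-fold in PBS.

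A similar pair exists for Ndufa4, which was first assigned to complex I and is now also placed with complex IV. Ndufa4 was at 11.84 in OVA P70 and 11.40 in PBS P70, and 9.08 in OVA P30 and 9.12 in PBS P30, 6.79-fold higher at P70 in OVA and 4.85-fold in PBS. Its paralogue Ndufa4l2, a gene induced by hypoxia, was below the floor at 4.76 (OVA) and 5.195 (PBS) at P70 and 5.26 (OVA) and 5.24 (PBS) at P30. The complex I subunit Ndufc1 was also below the floor, at 6.99 in OVA and 7.15 in PBS at P70, against 6.22 in OVA and 6.03 in PBS at P30. The last gene below it was Atp5sl, at 7.204 in OVA P70 and 7.10 in PBS P70, and 7.13 in OVA P30 and 7.11 in PBS P30. Atp5sl is now named Dmac2 and is an assembly factor, not a subunit of the ATP synthase.

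Complex V consists of a catalytic head in the matrix, stalks and a membrane part with a rotating ring of c subunits. Of its 18 genes 17 were expressed; 16 were at least 1.5-fold higher at P70 in OVA and 14 in PBS, with medians of 1.17 in OVA and 0.89 in PBS. In the head, Atp5a1, the alpha subunit, was at 10.21 (OVA) and 10.27 (PBS) at P70 and 9.52 (OVA) and 9.46 (PBS) at P30. Atp5b, the catalytic beta subunit, was at 11.26 in OVA and 10.87 in PBS at P70, against 10.31 in OVA and 10.26 in PBS at P30. Atp5a1 differed by 1.61-fold in OVA and 1.75-fold in PBS, and Atp5b by 1.93-fold in OVA and 1.53-fold in PBS. Atp5e, the epsilon subunit, was at 9.05 in OVA P70 and 8.56 in PBS P70, and 7.11 in OVA P30 and 7.07 in PBS P30. Atp5d, the delta subunit, was at 7.74 (OVA) and 8.09 (PBS) at P70 and 7.41 (OVA) and 7.29 (PBS) at P30. A second, dimmer probe set of Atp5d differed by -0.35 in OVA and -0.26 in PBS, opposite in sign to the one used (0.33 in OVA and 0.80 in PBS). Atp5c1 is not analysed here.

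In the stalk, Atp5o, which couples the head to the stator and is also called OSCP, was at 9.53 in OVA and 8.88 in PBS at P70, against 7.54 in OVA and 7.56 in PBS at P30. Atp5f1, the b subunit (now Atp5pb, with a named pseudogene), was at 9.89 in OVA P70 and 10.29 in PBS P70, and 8.20 in OVA P30 and 8.51 in PBS P30. Atp5h, the d subunit, was at 11.02 (OVA) and 10.86 (PBS) at P70 and 9.85 (OVA) and 9.97 (PBS) at P30. All 3 had both P70 arrays above both P30 arrays, with Atp5o 3.96-fold higher in OVA and 2.50-fold in PBS. Atp5j, coupling factor 6, was at 8.41 in OVA and 8.33 in PBS at P70, against 7.81 in OVA and 7.84 in PBS at P30, and differed by 0.60 in OVA and 0.49 in PBS.

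The c subunit is encoded by 3 genes that give the same mature protein and differ in their targeting sequences. Atp5g1 was at 8.96 in OVA P70 and 8.79 in PBS P70, and 7.80 in OVA P30 and 8.06 in PBS P30. Atp5g2 was at 13.40 (OVA) and 12.98 (PBS) at P70 and 11.77 (OVA) and 11.51 (PBS) at P30. Atp5g3 was at 11.22 in OVA and 10.66 in PBS at P70, against 9.58 in OVA and 9.67 in PBS at P30. All 3 were at least 1.5-fold higher at P70 in both treatments, with medians of 1.63 in OVA and 1.00 in PBS. The probe set used for Atp5g2 carries chromosome 7 in its name while the gene lies on chromosome 15; the probe set on the gene's own chromosome gave age differences of 1.94 in OVA and 1.62 in PBS.

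The remaining subunits lie in the membrane part, where they help ATP synthase dimers form. Atp5mpl was at 14.01 in OVA P70 and 13.58 in PBS P70, and 10.83 in OVA P30 and 10.81 in PBS P30. Atp5md, also known as DAPIT, was at 14.90 (OVA) and 14.68 (PBS) at P70 and 12.55 (OVA) and 12.35 (PBS) at P30. Atp5k, the e subunit, with 4 named pseudogenes, was at 9.06 in OVA and 8.94 in PBS at P70, against 7.72 in OVA and 7.67 in PBS at P30. Atp5mpl was 9.05-fold higher at P70 in OVA and 6.79-fold in PBS, and with Cox7a2 it was among the 3 highest in both treatments. Atp5j2, the f subunit, was at 9.34 in OVA P70 and 9.40 in PBS P70, and 8.58 in OVA P30 and 8.54 in PBS P30. Atp5l, the g subunit, was at 15.43 (OVA) and 15.11 (PBS) at P70 and 14.72 (OVA) and 14.77 (PBS) at P30. Atp5l2, which RefSeq lists as a pseudogene of it, was at 12.74 in OVA and 12.44 in PBS at P70, against 12.15 in OVA and 12.25 in PBS at P30. Atp5l and Atp5l2 were at least 1.5-fold higher at P70 only in OVA (1.63-fold and 1.51-fold), and their signals are uncertain because of their copies. The probe set used for Atp5l carries chromosome 5 while the gene lies on chromosome 9, and its other 2 probe sets gave 1.06 in OVA and 0.61 in PBS, and, in the dimmer of them, -0.47 in OVA and 0.32 in PBS.

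The comparison of OVA with PBS at P70 asked how the allergy group differed from its control at the older age. Of the 76 subunit genes 3 were at least 1.5-fold higher in OVA (3.95%), against 4.00% of all expressed genes, and none was at least 1.5-fold lower, against 1.22%. A share this close to that of all expressed genes is no result about the subunits. The 3 genes were Ndufa2 of complex I (1.77-fold), Atp5o of complex V (1.57-fold) and Cox6b1 of complex IV (1.55-fold). After median centring or lowess centring only Ndufa2 stayed past 1.5-fold, with Atp5o and Cox6b1 still above 0. The median difference of the subunit genes was 0.13 (range -0.55 to 0.83), where that of all expressed genes was 0.09, and 51 genes (67.1%) were above 0 and 25 below, against 65.0% of all expressed genes above 0. After median centring the median was 0.03, with 44 genes above 0 and 32 below, and after lowess centring it was 0.004, with 39 above and 37 below. Calls over all expressed genes were 76.6% upward as deposited, against 52.9% after median centring, 51.3% after lowess centring and 87.9% after quantile normalization.

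By complex, the median OVA minus PBS difference at P70 was 0.10 for complex I, 0.06 for complex II, 0.17 for complex III, 0.13 for complex IV and 0.23 for complex V. The lowest differences were those of Ndufb4b (-0.55), Ndufa12 (-0.44) and Atp5f1 (-0.40), each a gene with a named copy. Close below the threshold on the high side were Ndufa13 (0.57), Uqcr11 (0.56) and Atp5g3 (0.55). At a lower threshold of 0.32 on the log2 scale, 22 subunit genes were higher, where 17.3% of all expressed genes were, and 7 were lower, where 5.45% were.

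The comparison at P30 asked the same of the younger mice. No subunit gene was at least 1.5-fold higher or lower in OVA, where 0.669% of all expressed genes were higher and 0.896% lower, so under 1 gene on each side would match that share. The median difference was -0.03 (range -0.47 to 0.38), where that of all expressed genes was -0.01, with 34 genes above 0 and 42 (55.3%) below, against 53.6% of all expressed genes below 0. Quantile normalization turned the median to 0.006, with 39 genes above 0 and 37 below. Ndufb7 (-0.47), Uqcrfs1 (-0.40) and Uqcr11 (-0.38) had the lowest differences, and Ndufa8 (0.38), Ndufc2 (0.31) and Ndufs6 (0.31) the highest. The medians by complex were -0.09 for complex I, 0.03 for complex II, -0.20 for complex III, 0.06 for complex IV and 0.02 for complex V. At 0.32, 1 gene was higher, where 3.76% of all expressed genes were, and 8 were lower, where 5.66% were.

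**Figure D3:**
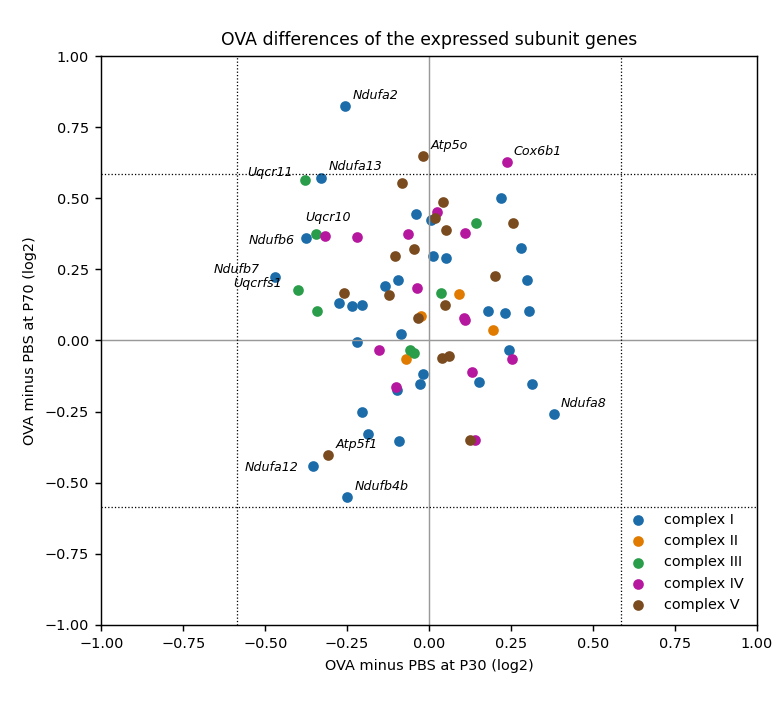
OVA minus PBS difference (log2) of the 76 expressed subunit genes at P70 (vertical axis) and at P30 (horizontal axis), coloured by complex, with dotted lines at 1.5-fold. At P70, 3 points lie above the upper line, and at P30 all points lie between the lines.

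The OVA minus PBS differences at the 2 ages did not follow each other. Of the 76 genes 24 were above 0 at both ages, 15 below 0 at both, 27 above at P70 and below at P30, and 10 the reverse. Of all expressed genes 65.0% were above 0 at P70 and 53.6% below 0 at P30, near the 67.1% and 55.3% of the subunit genes. With shares this close, the 27 genes against 10 are no result about the subunits. Pearson's r across the 76 genes was -0.03, and 0.02 across all expressed genes.

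Genes that work with the subunits give the context. Cycs, the electron carrier cytochrome c, was at 14.34 in OVA P70 and 14.11 in PBS P70, and 12.58 in OVA P30 and 12.34 in PBS P30. Cyc1, the cytochrome subunit of complex III, was at 10.50 (OVA) and 10.52 (PBS) at P70 and 9.26 (OVA) and 9.45 (PBS) at P30. Cox4i1, the widespread subunit IV of complex IV, was at 10.71 in OVA and 10.58 in PBS at P70, against 9.14 in OVA and 9.19 in PBS at P30, while its isoform Cox4i2 was at 7.29 in OVA P70 and 7.25 in PBS P70, and 7.49 in OVA P30 and 7.26 in PBS P30. Of the 6 such genes that the naming rule leaves out, 5 were at least 1.5-fold higher at P70 in each treatment. The shares of all expressed genes were 38.6% in OVA and 29.1% in PBS. Medians of the 6 genes were 1.30 in OVA and 0.98 in PBS. Cox4i2 was the exception, and the genes of the 6 not yet named were Ndufab1, the mitochondrial acyl carrier protein, and the ATP synthase inhibitor Atpif1. After median centring 4 of the 6 were at least 1.5-fold higher at P70 in each treatment, beside 19.8% in OVA and 17.4% in PBS of all expressed genes. After lowess centring 2 were in OVA and 3 in PBS, beside 13.5% in OVA and 12.03% in PBS of all expressed genes.

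Mitochondrial DNA encodes the central membrane subunits, and 5 of those 13 genes had a usable probe set. ND3 was at 15.06 (OVA) and 13.95 (PBS) at P70 and 9.70 (OVA) and 9.77 (PBS) at P30. ND2 was at 14.20 in OVA and 13.53 in PBS at P70, against 9.41 in OVA and 10.98 in PBS at P30. COX2 was at 12.13 in OVA P70 and 11.78 in PBS P70, and 9.18 in OVA P30 and 9.54 in PBS P30. These 3 of the 5 genes were at least 1.5-fold higher at P70 in both treatments, where 26.1% of all expressed genes were. ND2 was also lower in OVA at P30 (-1.57), 1 of the 5 genes, where 0.896% of all expressed genes were at least 1.5-fold lower. ND6 was at 12.45 (OVA) and 11.72 (PBS) at P70 and 11.81 (OVA) and 11.62 (PBS) at P30. At P70, ND3 (1.11), ND6 (0.73) and ND2 (0.67) were at least 1.5-fold higher in OVA, 3 of the 5 genes, against 4.00% of all expressed genes; after lowess centring only ND3 was. The fifth gene, COX1, lay near the upper limit of the arrays, and its differences are not interpreted.

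Assembly factors build the complexes and are no part of the finished enzymes. Of 36 expressed, 24 were at least 1.5-fold higher at P70 in OVA and 20 in PBS, against 38.6% of all expressed genes in OVA and 29.1% in PBS. Their medians were 0.88 in OVA and 0.76 in PBS, below those of the subunits. After median centring 16 of the 36 were at least 1.5-fold higher at P70 in OVA and 18 in PBS. The shares of all expressed genes were then 19.8% in OVA and 17.4% in PBS. After lowess centring 11 were in OVA and 14 in PBS, beside 13.5% in OVA and 12.03% in PBS of all expressed genes. Coa6, a copper-handling factor of complex IV, was at 9.36 in OVA and 10.22 in PBS at P70, against 8.22 in OVA and 8.01 in PBS at P30. Coa3, another factor of complex IV, was at 9.09 in OVA P70 and 8.37 in PBS P70, and 6.96 in OVA P30 and 7.22 in PBS P30. Tmem126a was at 10.21 (OVA) and 10.74 (PBS) at P70 and 8.98 (OVA) and 8.83 (PBS) at P30, and Cox11, also of complex IV, differed by 1.93 in OVA and 1.79 in PBS. At P70, Coa3 (0.72), Nubpl (0.64) and Ecsit (0.59) were at least 1.5-fold higher in OVA, and Coa6 (-0.86), Tmem126b (-0.65) and Ndufaf1 (-0.60) at least 1.5-fold lower, 3 of 36 each way against 4.00% of all expressed genes higher and 1.22% lower. After median centring 1 was higher (Coa3) and 4 were lower, after lowess centring 1 was higher and 5 were lower, and after quantile normalization 2 were higher and 1 lower. At P30, 1 assembly factor of 36, the complex II factor Acn9 (now Sdhaf3), was at least 1.5-fold lower in OVA (-0.75), against 0.896% of all expressed genes. Nubpl delivers iron-sulfur clusters to complex I, and Ndufaf1, Ecsit and Tmem126b act in building its membrane arm.

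Enzymes that supply the electrons had lower median age differences than the subunits. Of 14 expressed genes of pyruvate dehydrogenase and the tricarboxylic acid cycle, 9 were at least 1.5-fold higher at P70 in OVA and 6 in PBS, against 38.6% of all expressed genes in OVA and 29.1% in PBS. Their medians were 0.84 in OVA and 0.56 in PBS. After median centring 5 of the 14 were at least 1.5-fold higher at P70 in OVA and 3 in PBS. The shares of all expressed genes were then 19.8% in OVA and 17.4% in PBS. After lowess centring 3 were in OVA and 0 in PBS, beside 13.5% in OVA and 12.03% in PBS of all expressed genes. Idh3g, a subunit of isocitrate dehydrogenase, was at 12.35 in OVA and 12.28 in PBS at P70, against 10.97 in OVA and 11.01 in PBS at P30. Fh1, fumarate hydratase, was at 9.64 in OVA P70 and 8.94 in PBS P70, and 8.19 in OVA P30 and 8.38 in PBS P30. Mdh2, the mitochondrial malate dehydrogenase, was at 9.71 (OVA) and 9.12 (PBS) at P70 and 8.31 (OVA) and 8.33 (PBS) at P30. Fh1 and Mdh2 were also at least 1.5-fold higher in OVA at P70 (0.70 and 0.58), 2 of the 14 genes against 4.00% of all expressed genes. Mdh2 only just reached the threshold. After median centring only Fh1 met it, and after lowess centring neither gene did. Among 9 expressed transcriptional regulators of respiratory genes, 5 were at least 1.5-fold higher at P70 in OVA and 3 in PBS, again beside 38.6% in OVA and 29.1% in PBS of all expressed genes. Their medians were 0.65 in OVA and 0.27 in PBS, where those of all expressed genes were 0.39 in OVA and 0.26 in PBS. In PBS both the share of regulators, 33.3%, and their median were thus near those of all expressed genes. After median centring 2 of the 9 regulators were at least 1.5-fold higher at P70 in OVA and 1 in PBS. All expressed genes then had shares of 19.8% in OVA and 17.4% in PBS. After lowess centring 1 regulator was in OVA and 0 in PBS, beside 13.5% in OVA and 12.03% in PBS of all expressed genes. With 9 genes, counts this small are no result about the regulators. Tfb2m and Tfb1m, which act in mitochondrial transcription and ribosome maturation, differed by 1.01 and 1.06 in OVA and by 0.89 and 0.70 in PBS. Gabpa was at 8.89 in OVA and 8.43 in PBS at P70, against 8.07 in OVA and 8.29 in PBS at P30, Nrf1 at 8.67 in OVA P70 and 8.58 in PBS P70, and 8.27 in OVA P30 and 8.25 in PBS P30, and the coactivator Ppargc1a was below the floor, at 6.23 (OVA) and 6.27 (PBS) at P70 and 6.79 (OVA) and 6.63 (PBS) at P30.

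Gene groups looked up after these values were seen give a wider comparison for the age difference. Proteasome subunits (38 expressed) differed by a median of 1.31 in OVA and 1.26 in PBS, and cytosolic ribosomal proteins (38 expressed) by 1.21 and 1.17. Mitochondrial ribosomal proteins (66 expressed) differed by 0.86 in OVA and 0.63 in PBS. The medians of the proteasome and the cytosolic ribosome lay close to those of the respiratory subunits, 1.34 in OVA and 1.17 in PBS. The lists of assembly factors, cycle enzymes and regulators above had lower medians in both treatments. The carriers' median lay close to that of the subunits in OVA (1.30) and below it in PBS (0.98). Higher medians, 2.94 in OVA and 2.23 in PBS, were those of the 5 mitochondrially encoded genes. These 5 include COX1, which lay near the upper limit of the arrays.

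**Figure D4:**
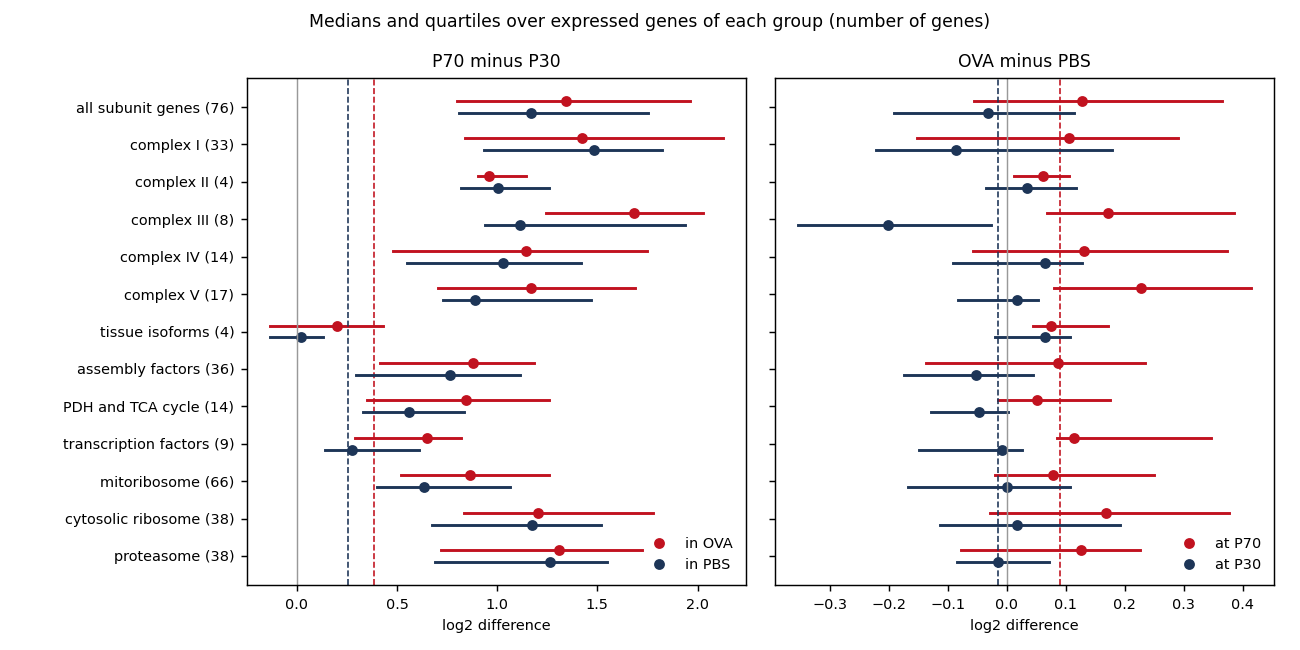
Median log2 difference (points) with quartiles across genes (bars) for all expressed subunit genes, each complex, the tissue isoforms and related gene groups: P70 minus P30 on the left (red in OVA, blue in PBS) and OVA minus PBS on the right (red at P70, blue at P30). Dashed lines mark the medians of all expressed genes, 0.39 in OVA and 0.26 in PBS on the left and 0.09 at P70 and -0.01 at P30 on the right. On the left the median of every group but the tissue isoforms lies to the high side of them, that of the transcriptional regulators in PBS only just.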

How the data were processed

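The authors deposited intensities on a linear scale, 1 value per probe set and array, per the file headers and the values themselves. RMA and version 1.4.1 of Affymetrix Expression Console are listed in the submitters' processing notes; scaling between arrays and genome build are not given in the sources used here. Per the labels' protocols, TRIzol and a column kit gave the RNA, which was amplified with the GeneChip WT Pico kit. Values were turned to log2 and used without further normalization. Of 65956 probe sets, 30604 carried 1 symbol, 2146 several and 33206 none here; 827 symbols were updated by Entrez ID with RefSeq GRCm38.p6. The brightest probe set stood for each of 17639 genes, of which 192 had several. Ndufa11, Ndufa11b and Ndufb4 had only shared probe sets and were not used. Differences between 2 arrays were counted at 1.5-fold, beside the same over all expressed genes; no test was made, since 1 array per group gives no spread and a model of treatment plus age would have only the difference between its own effects as residual; the code was tested on simulated data. Every subunit gene is given, and from each of 5 related lists genes among the 3 of largest difference per comparison; COX1, Nubpl, Ecsit, Ndufaf1, Nrf1 and Ppargc1a are named outside this rule, chosen after their values were seen. Members and lists were chosen with earlier results of these data known. Alternatives covered the filter, centring, quantile normalization, threshold, membership and choice of probe set; 2 of them, on probe set chromosome and named copies, were added after the data were seen. Python 3.11.15, pandas 2.3.3 and statsmodels 0.14.6 were used. A probe set's copies, where RefSeq names a pseudogene or near copy, make 12 subunit genes uncertain.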

Additional observations from a re-analysis of the deposited data

Results flagged for a closer look

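The OVA minus PBS difference of the subunit genes had opposite signs at the 2 ages. The median over the 76 expressed genes was 0.13 at P70 and -0.031 at P30, and the difference between the ages was not tested, since each rests on 1 array per group. The sign at P30 depended on the scaling, as the P30 median was 0.0059 after quantile normalization. The P70 median stayed above 0 but changed in size, to 0.0266 after median centring and 0.0044 after lowess centring. The medians of all expressed genes, 0.09 at P70 and -0.01 at P30, had the same signs as those of the subunit genes. The same held gene by gene for 4 subunits that were at least 0.32 (log2) apart in opposite directions, none of which was tested. Ndufa13 of complex I differed by 0.57 at P70 and -0.33 at P30, and Ndufb6 of complex I by 0.36 at P70 and -0.38 at P30. Uqcr11 of complex III differed by 0.56 at P70 and -0.38 at P30, and Uqcr10 of complex III by 0.38 at P70 and -0.34 at P30. These 4 were 5.26% of the subunit genes, where 1.58% of all expressed genes were as far apart in these directions. At P70, Ndufb6 was at 0.26 after median centring and 0.19 after lowess centring, and Uqcr10 at 0.27 after median centring and 0.22 after lowess centring. With Ndufa13 at -0.31 at P30 after median centring and -0.28 after lowess centring, only Uqcr11 of the 4 met 0.32 at both ages under either, 1.32% of the subunit genes, against 0.964% of all expressed genes after median centring and 0.896% after lowess centring.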

How the results depend on the processing

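Each of the 16 summary values was recomputed under the alternatives, 220 values in all, of which 182 stayed within 0.1 log2 units or 1.5 times, 36 moved further and 2 changed sign. Some of the 182 could not have moved. Median centring cannot change the excess over all expressed genes, and leaving out genes at the array limit removed no subunit gene. Both sign changes came from quantile normalization at P30, where the OVA minus PBS median was 0.0059 and its excess over all expressed genes 0.0013. For the other values the cause was not tested. For age, median centring gave medians of 0.93 in OVA and 0.88 in PBS and 1 gene lower in each. Lowess centring gave 0.56 in OVA and 0.61 in PBS, an excess over all expressed genes of 0.56 and 0.61, 38 and 39 genes higher, and 1 and 3 lower. The stricter filter gave a PBS median of 1.29 and an excess of 0.69 in OVA and 0.75 in PBS. No filter gave an OVA median of 1.23, an excess of 1.27 in OVA and 1.13 in PBS, and 1 gene lower in each. With all symbols in the background the excess was 1.17 in OVA and 1.08 in PBS, and at a threshold of 0.32 (log2) 1 gene was lower in each. For OVA minus PBS at P70, median centring gave a median of 0.0266 with 1 gene higher and 1 lower, and lowess centring 0.0044 with 1 higher and 2 lower. Quantile normalization gave 6 genes higher there, the threshold of 0.32 gave 22 higher and 7 lower, and the 2-fold threshold 0 higher. At P30 the threshold of 0.32 gave 1 higher and 8 lower. No paired analysis was possible because each group is 1 array, and for the same reason no array could be left out. The number of arrays limits the precision, and no subunit gene lay at the upper limit of the arrays.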

Other observations

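Across subunit genes, the mean of the 2 age differences was set beside promoter motifs as a description. The median was 1.58 in the 16 expressed genes with CCGGAAG and 1.23 in the 47 without it, and 1.12 in the 14 with the NRF1 motif and 1.43 in the 49 without it. For AANATGGCG it was 1.53 in 7 genes with the motif and 1.30 in 56 without it. For the ESRRA motif it was 1.09 in 7 genes with it and 1.37 in 56 without it, and for the E-box 0.78 in 6 with it and 1.32 in 57 without it. TATAAA gave 1.06 in 6 genes with it and 1.31 in 57 without it, GGGCGG 1.29 in 26 and 1.31 in 37, and CCAAT 1.32 in 27 and 1.30 in 36. These genes share arrays, and no difference between them was tested.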
